A study of Mus musculus with 4 samples.

Results

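A set of 41 genes of the cell division cycle was followed in lesional facial skin of mice, 16 of them acting at the start or during S phase and 25 in mitosis. They were taken by gene symbol from the deposited table of transcription starts, in which 17849 genes are named, and all 41 were found there. The assay was cap analysis of gene expression (CAGE), which sequences short tags from the capped 5′ end of RNA. Each tag stands for 1 RNA 5′ end, so levels of different genes can be set side by side without a correction for length. Levels are CPM, tags scaled to a common library total, and the tags of all start clusters of a gene were summed.

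All 4 libraries form 1 group: C57BL/6 mice of genotype Nectin-cre(+);Ikk2FL/FL;Postn-/-, sampled at postnatal day 28. These animals carry a floxed allele of the kinase gene Ikk2 with a Cre transgene, which gives the model called FADS (facial atopic dermatitis with scratching), and also lack the matrix protein gene Postn. The labels spell the Cre driver as Nectin and do not say in which cells it acts, and every library lacks Postn, so no effect of either allele can be read here. The meaning of the sample codes is not given, nor whether each skin was from a different animal. p-values therefore speak of the variation among these samples alone, and that variation may be technical. Library totals, the base of the deposited CPM, were 17630119 to 18823630 tags, and 1 tag was worth 0.0531 to 0.0567 CPM. These totals count again the 2072 entries that repeat a cluster under another gene. Distinct clusters held 16492915 to 17691558 tags. The tissue label was matched by its keratins: Krt14, of basal keratinocytes, stood at 736 ± 177 CPM (SD, n = 4).

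Cells that enter division first load the MCM helicase onto origins of replication, with the help of Cdc6 and Cdt1, and make the enzymes of nucleotide supply. Transcription of these genes is driven at the transition from G1 to S phase by E2F factors, of which E2F1 is one. The genes of mitosis follow later, and many of them are repressed in resting cells through a CHR element (cell cycle genes homology region) near the start, often with CCAAT boxes upstream. In skin, dividing cells are found mainly in the basal epidermis and the hair matrix, and thickened lesional epidermis is known for more of them. In bulk tissue, fewer dividing cells and less RNA per dividing cell cannot be told apart.

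Promoter windows of RefSeq (build GRCm38.p6), from 250 bases before to 50 after the start, were matched for 33 of the 41 genes. Those of Tpx2, Foxm1, Ccne2, Mcm4, Gmnn, Ccna2, Kif20a and Aurkb were not used here. The 160 bases before the start are printed for genes that carry the contrast between the classes: the 3 mitotic genes of highest level, the kinase gene Cdk1 and the cyclin gene Ccnb1, then the S phase genes Mcm6 and Mcm5 with E2F letters, and Tyms, with none of the letters searched. The choice of these 8 was made after their values were seen. Sequences run 5′ to 3′ on the strand of the gene, and capitals mark exact matches, on either strand, to E2F sites (TTTGGCGC, TTTCCCGC, TTTCGCGC or TTTGCCGC), to CCAAT and to the CHR (TTTGAA or TTTAAA).
Mki67, GRCm38.p6 chr7:135716380-135716539, minus strand: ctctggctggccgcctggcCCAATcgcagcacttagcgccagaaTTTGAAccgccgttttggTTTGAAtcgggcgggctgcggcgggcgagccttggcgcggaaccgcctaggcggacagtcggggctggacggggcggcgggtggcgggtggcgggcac
Ube2c, GRCm38.p6 chr2:164769769-164769928, plus strand: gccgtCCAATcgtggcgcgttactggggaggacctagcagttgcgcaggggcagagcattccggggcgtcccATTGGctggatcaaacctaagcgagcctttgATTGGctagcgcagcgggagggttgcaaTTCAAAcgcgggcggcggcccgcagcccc
Cdc20, GRCm38.p6 chr4:118437344-118437503, minus strand: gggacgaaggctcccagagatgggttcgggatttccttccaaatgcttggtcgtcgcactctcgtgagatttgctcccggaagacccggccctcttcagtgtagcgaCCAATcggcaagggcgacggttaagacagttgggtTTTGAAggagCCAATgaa
Cdk1, GRCm38.p6 chr10:69352913-69353072, minus strand: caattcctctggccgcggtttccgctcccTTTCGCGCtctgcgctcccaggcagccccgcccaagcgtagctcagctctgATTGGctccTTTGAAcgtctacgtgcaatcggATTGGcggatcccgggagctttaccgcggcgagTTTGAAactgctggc
Ccnb1, GRCm38.p6 chr13:100786487-100786646, minus strand: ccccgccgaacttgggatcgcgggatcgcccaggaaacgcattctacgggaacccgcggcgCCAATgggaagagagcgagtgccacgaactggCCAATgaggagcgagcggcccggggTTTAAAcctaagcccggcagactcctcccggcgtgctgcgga
Mcm6, GRCm38.p6 chr1:128359706-128359865, minus strand: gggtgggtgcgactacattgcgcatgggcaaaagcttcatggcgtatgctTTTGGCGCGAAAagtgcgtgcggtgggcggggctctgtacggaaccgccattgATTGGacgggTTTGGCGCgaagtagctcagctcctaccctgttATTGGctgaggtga
Mcm5, GRCm38.p6 chr8:75109349-75109508, plus strand: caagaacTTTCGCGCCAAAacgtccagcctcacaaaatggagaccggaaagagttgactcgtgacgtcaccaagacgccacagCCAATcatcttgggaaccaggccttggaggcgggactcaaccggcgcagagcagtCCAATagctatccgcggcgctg
Tyms, GRCm38.p6 chr5:30073626-30073785, minus strand: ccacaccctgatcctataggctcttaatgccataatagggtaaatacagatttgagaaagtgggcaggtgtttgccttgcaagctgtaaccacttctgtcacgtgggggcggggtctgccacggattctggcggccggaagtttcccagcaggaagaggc

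In each of the 5 mitotic promoters a CHR match lay downstream of a CCAAT match, and it was the match closest to the start in 4 of them. In Cdc20 a further CCAAT followed. In Mcm6 and Mcm5, matches to different E2F letters on opposite strands overlapped, which gives the longest runs of capitals there. Over all matched windows, E2F letters were held by 6 of 13 S phase promoters and 1 of 20 mitotic ones, that of Cdk1, against 4.09% of 10991 tested genes with 1 promoter each and 2.26% of 32851 windows in all. CHR letters were held by 17 of 20 mitotic and 4 of 13 S phase promoters, against 18.9% of tested genes. CCAAT was held by 17 of 20 and 8 of 13, against 38.2%, and both CHR and CCAAT by 16 of 20 and 3 of 13, against 7.79%. TATAAA, the TATA box, was held by 0 of 33, against 8.43% of tested genes. Such a match describes letters in a window. It is no measure of binding.

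The tag data place these letters relative to the starts used in the skin. In 27 of 33 promoters the centre of the strongest cluster of tags lay within 100 bp of the RefSeq start, and in 4 (Nusap1, E2f1, Cdc6 and Mad2l1) it lay beyond 150 bp. Measured from that centre, the nearest CHR match of a mitotic promoter lay at a median of -25 bp, where negative values are upstream, and 16 of 20 mitotic promoters held one within 100 bp of it. The same was so for 2 of 13 S phase promoters. The windows of the 4 genes beyond 150 bp ended more than 100 bp from the centre, so no near match could be found in them. They are kept in both counts. The share among all tested genes was not computed. The windows end 50 bases after the RefSeq start, and in further genes the centre lay beyond that end. It lay 71.5 to 133.5 bp after the start in Mcm2, Mcm6, Mcm5 and Rrm1, and 50.5 to 72.5 bp in Aurka, Birc5 and Bub1b. In these genes the centre and the bases after it were not searched. The counts and medians of the classes therefore do not rest on equal coverage. The nearest CCAAT match lay at a median of -58.0 bp in 17 mitotic promoters and -86.5 bp in 8 S phase promoters. E2F letters lay within 100 bp of the centre in 3 of 13 S phase promoters and 0 of 20 mitotic ones. In the 6 S phase promoters with such letters, the nearest match lay between -245.5 and 218.5 bp. Those of Mcm6 and Mcm5, printed above, lay beyond 100 bp. Nusap1 and Mad2l1, whose strongest clusters are far from the RefSeq start, held no match of these kinds in the windows examined.

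**Figure D1:**
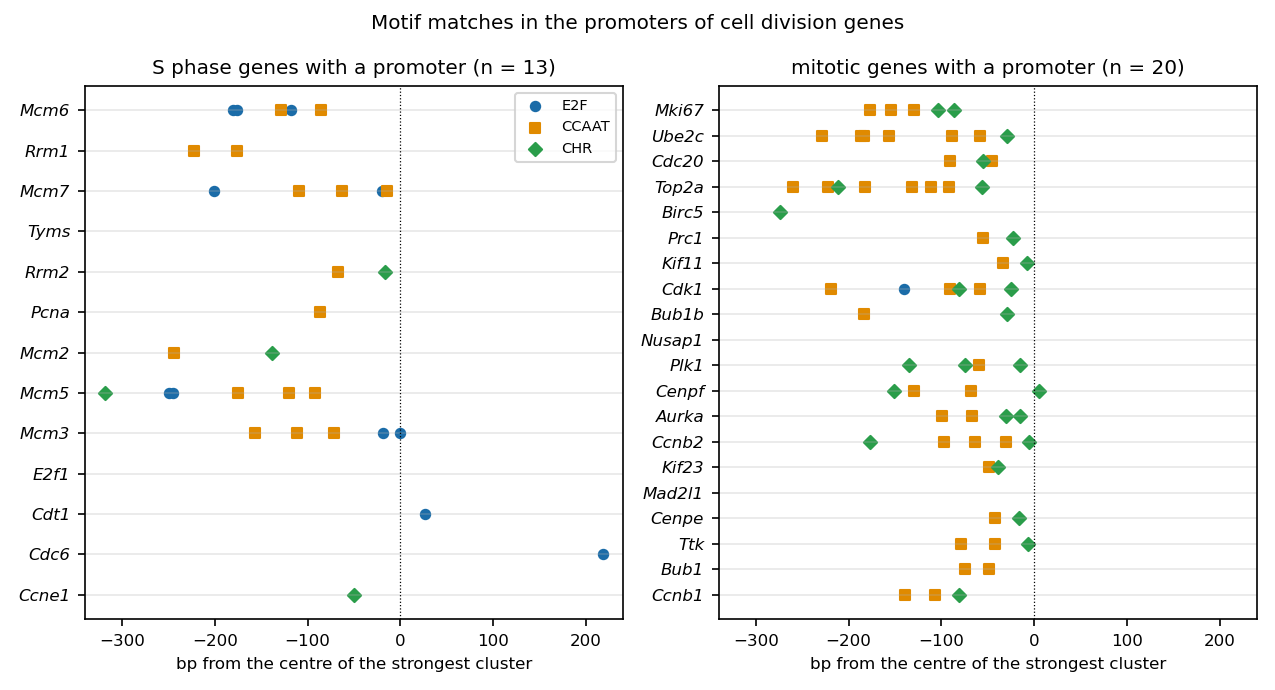
Positions of matches to E2F, CCAAT and CHR letters in the promoters of 13 S phase genes (left) and 20 mitotic genes (right), in bp from the centre of the gene's strongest cluster of tags (dotted line; negative is upstream). Genes are ordered by level, highest at the top. A CHR match lies within 100 bp of the line in 16 of 20 mitotic promoters, against 2 of 13 S phase promoters. The windows of Nusap1, E2f1, Cdc6 and Mad2l1 ended more than 100 bp from the line, so no near match could be found in them. Those of Mcm2, Mcm6, Mcm5, Rrm1, Aurka, Birc5 and Bub1b ended upstream of the line, so their coverage near it was partial.

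All 41 genes were above the floor of 3 tags in every library and passed the filter of 1 CPM on average. Summed over genes, the S phase class held 711, 657, 780 and 760 CPM in libraries 1 to 4 (727 ± 54.9, SD, n = 4), and the mitotic class 1121, 998, 1085 and 1194 CPM (1099 ± 81.5). Library 2 was lowest in both sums, library 3 highest for S phase and library 4 highest for mitosis. Together the genes took 0.165% to 0.195% of a library's total, repeated entries included. The mean levels of 40 of them ran from 7.35 to 115.8 CPM, and Ccnb1, at 1.22 CPM, stood far below the rest.

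**Figure D2:**
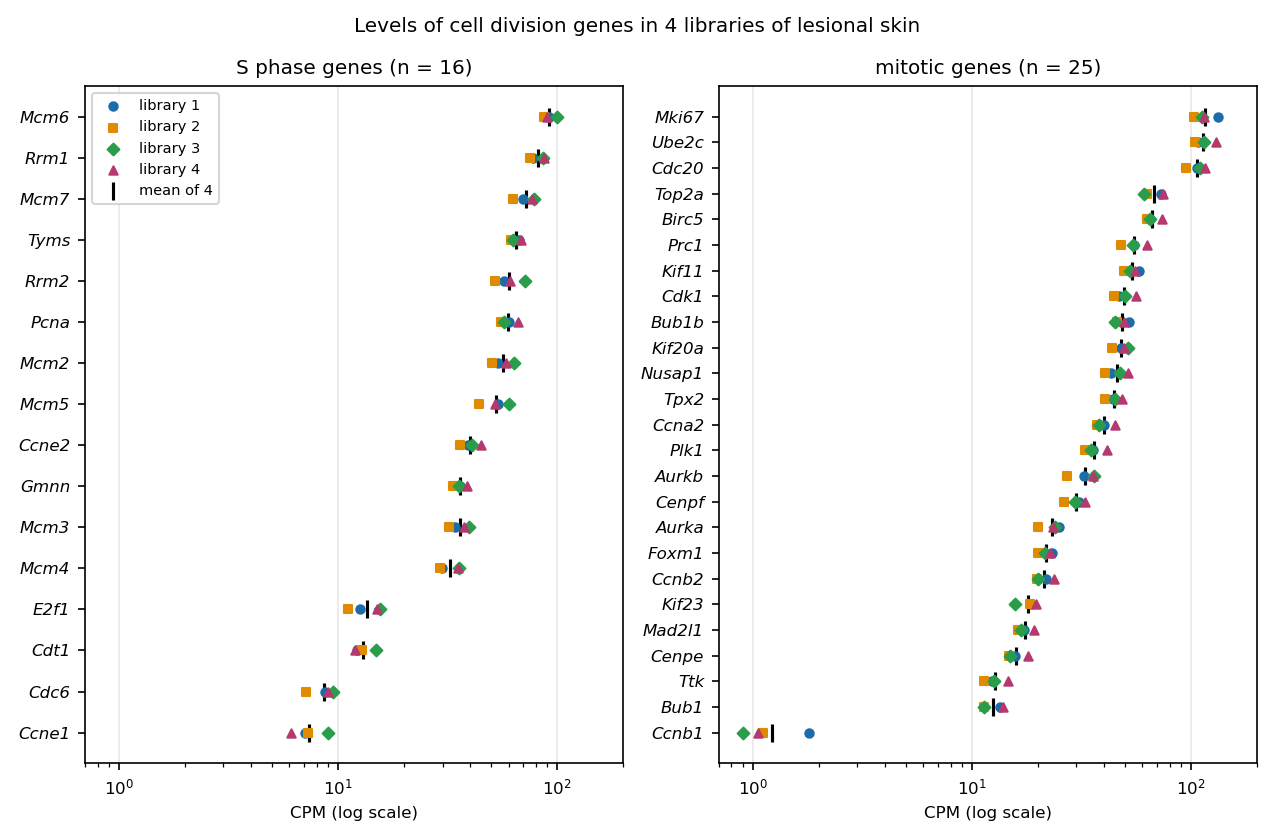
Level of each gene in CPM (log axis) in the 4 libraries, for 16 S phase genes (left) and 25 mitotic genes (right), ordered by the mean (black bar). The libraries lie close together for most genes, from Mki67 at 103 to 133 CPM down to Ccne1 at 6.08 to 8.96 CPM, and Ccnb1 is apart from the other mitotic genes at 0.908 to 1.82 CPM.

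At the entry to S phase, the transcription factor gene E2f1 stood at 12.6, 11.2, 15.5 and 15.1 CPM in libraries 1 to 4. The cyclins E, which activate Cdk2 at this transition, were unequal. Ccne1 had 7.04, 7.33, 8.96 and 6.08 CPM, and Ccne2 had 39.3, 35.9, 40.9 and 44.8 CPM. Their ranges did not overlap, and Ccne2 was higher 5.51-fold (log2 2.46 ± 0.31, SD, n = 4; higher in 4 of 4 libraries). With the strongest cluster of each gene alone the fold was 2.86, because close to the same number of Ccne2 tags lay in another cluster, described with the start clusters. How often pairs of tested genes overlap was not computed, so statements on overlap and order here and below are descriptions only.

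Among the licensing genes, the 6 subunits of the MCM helicase act in 1 complex but differed in level. Mcm6 led all S phase genes with 91.9, 87.0, 99.7 and 90.3 CPM. Mcm7 (71.9 ± 7.27), Mcm2 (56.6 ± 5.79), Mcm5 (52.4 ± 6.76), Mcm3 (35.9 ± 3.41) and Mcm4 (32.6 ± 3.46) followed in that order of mean levels in CPM. Mcm6 exceeded Mcm4 by 2.84-fold (log2 1.51 ± 0.12), with no overlap. The gaps of Mcm6 over Mcm7 and of Mcm5 over Mcm3 also left no overlap between the libraries' ranges, while the ranges of Mcm7 and Mcm2, of Mcm2 and Mcm5, and of Mcm3 and Mcm4 overlapped. In each of these pairs, which were formed in the order of the means seen, the gene named first was the higher in 4 of 4 libraries. By the strongest clusters alone Mcm7 was higher than Mcm2 in 1 of 4 libraries, and Mcm6 exceeded Mcm7 1.63-fold in place of 1.29-fold.

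The helicase loaders were among the lowest S phase genes. Cdt1 had 12.2, 12.9, 14.9 and 12.0 CPM and Cdc6, the other loader, 8.69, 7.17, 9.47 and 9.03 CPM. The values did not overlap, and Cdt1 was 1.51-fold higher. Gmnn, the geminin gene, whose protein inhibits Cdt1 after origins have fired, had 35.9, 33.3, 35.7 and 38.8 CPM and exceeded Cdt1 2.77-fold (log2 1.47 ± 0.19), again in 4 of 4 libraries.

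The 4 genes of nucleotide supply and the replication clamp had mean levels of 59.9 to 81.4 CPM. Rrm1, the large subunit of ribonucleotide reductase, had 77.4, 75.3, 85.8 and 87.1 CPM, and Rrm2, the small subunit, 57.2, 52.1, 71.2 and 61.0 CPM. Rrm1 was 1.35-fold higher with no overlap. Tyms, thymidylate synthase, had 67.2, 61.3, 63.1 and 68.7 CPM, and Pcna, the sliding clamp of DNA polymerase, 59.9 ± 4.80 CPM (SD, n = 4).

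In the mitotic class the proliferation marker Mki67, which coats mitotic chromosomes, was highest, with 133, 103, 112 and 115 CPM in libraries 1 to 4, rank 1466 of 14732 tested genes. Top2a, the topoisomerase that untangles sister chromatids, had 73.0, 63.1, 61.1 and 74.5 CPM, and Mki67 exceeded it 1.70-fold. The genes of the anaphase-promoting complex came next to Mki67. Ube2c, its ubiquitin-conjugating enzyme, had 107, 104, 114 and 129 CPM, and Cdc20, its activator, 106, 94.99, 110 and 115 CPM. Ube2c was the higher in 4 of 4 libraries, but by 1.07-fold, and the ranges of both genes overlapped.

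Cdk1, the kinase that drives entry into mitosis, stood at 49.5 ± 5.04 CPM, and Ccna2, cyclin A2, at 40.1 ± 3.61 CPM (SD, n = 4). Foxm1, the transcription factor of late cell cycle genes, stood at 21.9 ± 1.41 CPM. The B cyclins, partners of Cdk1, were the most unequal of the pairs compared. Ccnb2 had 21.9, 19.8, 20.1 and 23.6 CPM, and Ccnb1 had 1.82, 1.12, 0.908 and 1.06 CPM, from 33, 21, 16 and 19 tags. Ccnb2 was 18.04-fold higher (log2 4.17 ± 0.42), between 12.1-fold and 22.3-fold by library.

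The low level of Ccnb1 rests on a single narrow cluster of 20 bp on chromosome 13, from 100786434 to 100786453 on the minus strand. It lies in exon 1 of annotated transcripts, 22 bp downstream of the nearest GENCODE start, and the strongest clusters of 37 of the 41 genes did hold an annotated start. Those of Pcna, Cenpe and E2f1 also held none and lay 60, 5 and 6 bp from the nearest. The CHR and CCAAT letters of Ccnb1 are those printed above. Of the 174 windows of 27 bases in its first 200 transcript bases, 6 (3.45%) also occur in Ccnb1-ps, Gm12856 or Gm7483. How the authors' alignment treated tags with several matches was not stated in the sources read here, so the level of Ccnb1 is uncertain. The same kind of sharing was 40.2% for Mad2l1 (with AC139157.1) and 2.87% to 11.5% for Plk1, Rrm2, Ube2c, Tyms and Top2a, and 0% for the other 34 genes. Only annotated transcripts were searched, not the whole genome. These shares are therefore no upper limit, and 0% does not show that tags map uniquely.

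Kinases of the spindle and its checkpoint spanned a wide range. Aurkb, the kinase of the chromosomal passenger complex, had 32.5, 27.04, 35.9 and 35.7 CPM, and Aurka, the kinase of the spindle poles, 24.9, 20.03, 24.0 and 23.5 CPM. Aurkb was 1.42-fold higher, with no overlap. Bub1b, which encodes the checkpoint protein BubR1, had 52.3, 46.2, 45.2 and 49.6 CPM and exceeded its relative Bub1, at 13.4, 11.4, 11.4 and 13.9 CPM, 3.86-fold (log2 1.95 ± 0.08). Plk1, a kinase of mitotic entry and centrosomes, stood at 36.2 ± 3.68 CPM and Ttk, the checkpoint kinase Mps1, at 12.7 ± 1.39 CPM.

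Of the kinetochore and passenger genes, Birc5, the survivin gene, led with 66.7 ± 4.98 CPM, ahead of Cenpf (29.9 ± 2.79), the checkpoint gene Mad2l1 (17.4 ± 1.27) and the kinetochore motor gene Cenpe (15.9 ± 1.56). Spindle genes were led by Prc1, which bundles midzone microtubules (55.1 ± 6.09), and by Kif11, the motor that separates the poles (53.8 ± 3.85). Nusap1 (45.8 ± 4.86) and Tpx2 (44.5 ± 3.16), which bind spindle microtubules, were close to them. The kinesins of cytokinesis differed: Kif20a had 48.0, 43.4, 51.7 and 49.5 CPM and Kif23 had 18.7, 18.4, 15.7 and 19.6 CPM. Kif20a was 2.66-fold higher in 4 of 4 libraries, or 2.11-fold by the strongest clusters alone.

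The classes were then set against each other within each library. S phase genes took 38.8%, 39.7%, 41.8% and 38.9% of the tags of all 41 genes in libraries 1 to 4, with 95% exact binomial intervals of 38.3% to 39.3%, 39.2% to 40.3%, 41.3% to 42.4% and 38.4% to 39.4%, which cover counting error only. Library 3 stood above the other 3, whose values span less than a percentage point. On the log2 scale the ratio of summed S phase to summed mitotic CPM was -0.66, -0.60, -0.48 and -0.65 (-0.60 ± 0.08, SD, n = 4), and without library 3 the SD was 0.03. The sums cover 16 genes against 25, so their ratio does not compare levels gene by gene. By gene, the median level was 46.3 CPM for S phase and 40.1 CPM for mitosis. The difference of the class means of log2(CPM + 1) was 0.11, but its sign rested on Ccnb1: without that gene, left out after its value was seen, it was -0.06.

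The place of library 3 did not depend on the genes active in several phases. Without Mki67, Top2a, Ccna2, Foxm1 and Gmnn, the S phase share was 44.2%, 44.6%, 46.6% and 43.5%. A wider set of cell division genes gave a smaller range. For 37 other replication genes and 40 other mitotic genes, the replication share was 45.4%, 44.7%, 45.8% and 45.0%, a range of 1.01 percentage points against 3.02 for the 41 genes. Library 3 was highest in that set too, but its interval (45.3% to 46.2%) overlapped that of library 1 (44.9% to 45.9%).

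**Figure D3:**
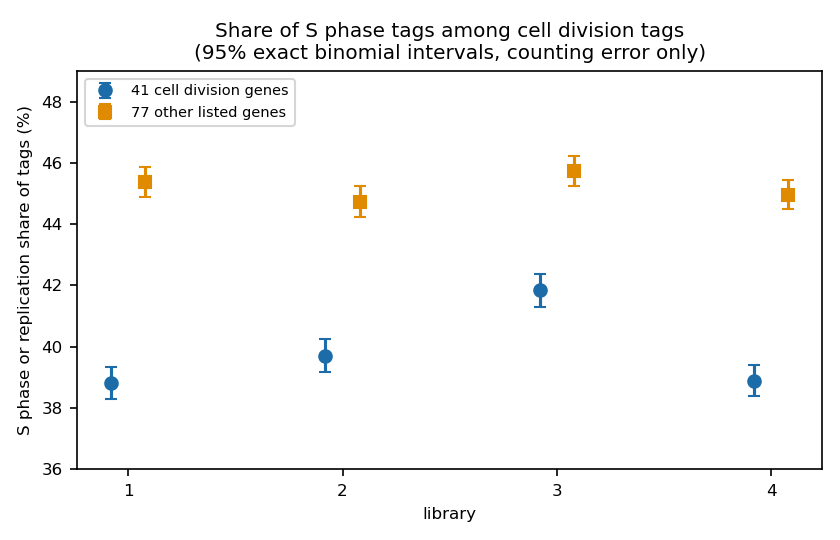
Percent of tags from S phase genes among the tags of the 41 cell division genes (circles), and from replication genes among 77 other listed genes (squares), by library; bars are 95% exact binomial intervals, and the axis starts at 36%. For the 41 genes library 3 lies at 41.8% and the others at 38.8% to 39.7%, while the other listed genes lie at 44.7% to 45.8%.

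Libraries 3 and 4 had nearly equal totals of the 41 genes, 1865 and 1953 CPM, but split them differently. Of 16 S phase genes, 11 were higher in library 3 than in library 4, and of 25 mitotic genes, 22 were higher in library 4, against 47.9% and 52.1% of all tested genes in those directions. With TMM scaling (trimmed mean of M values, which equalises the bulk of genes) the 2 counts were 11 and 22 again, and the shares of all tested genes were 49.9% and 50.1%. This contrast of libraries was noticed in the data and is given with no test. The 11 were E2f1, Ccne1, Rrm2 and 8 of the 9 licensing genes, with Gmnn as the exception. The 3 mitotic genes higher in library 3 were Kif20a, Aurkb and Aurka.

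By size these differences were small. The median of library 3 minus library 4, on the TMM-scaled log2(CPM + 1) scale, was 0.06 over S phase genes and -0.17 over mitotic genes, and the 5% and 95% percentiles of tested genes were -0.34 and 0.36. Among other replication genes the median was -0.04, with 13 of 37 higher in library 3 on that scale, and among other mitotic genes it was -0.07, with 32 of 40 higher in library 4. In CPM without scaling these counts were 11 and 33. No difference between these groups of genes was tested.

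**Figure D4:**
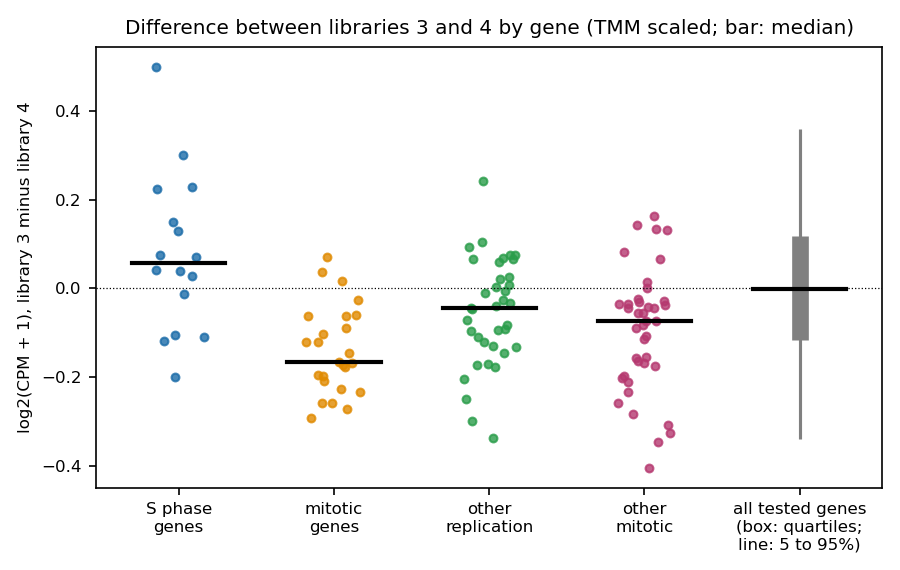
Difference between libraries 3 and 4 in TMM-scaled log2(CPM + 1) for each of 16 S phase and 25 mitotic genes and for 37 other replication and 40 other mitotic genes (points; black bars are medians), beside percentiles of all tested genes (grey). The medians are 0.06 for S phase, -0.17 for mitotic, -0.04 for other replication and -0.07 for other mitotic genes.

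Markers of cell types moved between these libraries as well. The summed level of 8 basal keratinocyte markers was 2492, 2236, 3283 and 2692 CPM in libraries 1 to 4. All 8 were highest in library 3, as were 35.3% of all tested genes. With TMM scaling 7 of the 8 were, against 27.9%. The 7 stress keratinocyte markers summed to 5625, 5603, 8173 and 5440 CPM, also with all 7 highest in library 3. The 9 hair matrix and follicle markers summed to 7729, 7088, 3813 and 5701 CPM, and 8 hair shaft markers to 5486, 4910, 1596 and 1316 CPM, so that library 3 was lowest in the first and library 4 in the second. Summed markers of some other cells were also highest in library 3. By gene, 4 of 6 fibroblast, 5 of 6 suprabasal keratinocyte and 4 of 5 endothelial markers were highest there, the rest in library 4. The 6 fibroblast markers summed to 3630, 3224, 6120 and 5426 CPM, the 6 suprabasal keratinocyte markers to 7030, 6061, 9519 and 9203 CPM, and the 7 sebocyte markers, all 7 highest in library 3, to 810, 892, 1519 and 1159 CPM. The 5 endothelial markers summed to 41.2, 41.8, 60.7 and 59.4 CPM. Skeletal muscle markers (6) summed to 1974 to 4957 CPM, highest in library 4, and 7 macrophage markers to 109 to 137 CPM. Of the T cell markers, 3 of 6 symbols were in the table and summed to 5.47 to 11.5 CPM. The part of these cells in the S phase and mitotic levels was not tested.

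Taken gene by gene, the largest value was in library 1 for 6 genes, in library 2 for 0, in library 3 for 13 and in library 4 for 22, against 22.8%, 6.48%, 35.3% and 35.4% of tested genes. With TMM scaling the counts were 9, 1, 13 and 18, against 25.0%, 24.0%, 27.9% and 23.1%. The smallest value was in library 2 for 35 of 41 genes in CPM, against 50.6% of tested genes. With TMM scaling it was in libraries 1 to 4 for 4, 15, 19 and 3 genes, against 24.6%, 22.8%, 28.6% and 24.0%, and 16 of the 19 lowest in library 3 were mitotic. The median deviation from each gene's mean, TMM scaled, was -0.03, -0.05, 0.09 and 0.02 for S phase genes and 0.01, -0.03, -0.08 and 0.08 for mitotic genes in libraries 1 to 4.

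A limma fit over all genes, on log2(CPM + 1) with TMM scaling, asked whether a gene varied among the 4 libraries beyond the usual variation at its level. None of the 41 passed (0 of 41, adjusted p from 0.993 to 0.995), and 0 of 41 had an unadjusted p under 0.05, against 0.231% and 6.29% of 14732 tested genes. With 4 libraries the adjusted test also misses large differences. Of 8 hair shaft markers, with a median log2 range of 2.75, 0 passed, though 8 had an unadjusted p under 0.05. That 0 of 41 passed therefore does not show that these genes were steady. When only the 14909 genes with at least 10 tags in every library were tested, all 41 among them, 0 genes passed. At that filter 0 of 41 does not set these genes apart. With edgeR on the recovered tags 0 of 41 passed, against 0.224%. DESeq2 marked 0 of 41 as dispersion outliers, against 513 of the 14732 tested genes. The widest ranges on this scale were those of Ccnb1 (0.60), Ccne1 (0.50) and Kif23 (0.36), and the narrowest those of Rrm1 (0.09), Tpx2 (0.09) and Kif20a (0.10). Tpx2 had 44.1, 40.6, 45.0 and 48.3 CPM. In 0 of 44 values (the 41 genes, both sums and the S phase share) did the gap of 1 library to the next pass the limit of Dixon's test at 95%.

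Set beside the 9688 tested genes of the same range of levels, 7.35 to 115.8 CPM, the 40 cell division genes in it had a median TMM-scaled log2 range of 0.20 against 0.24. Measured against counting error, without scaling, the order was the other way. The SD over libraries was a median of 2.39 times what counting alone gives for all 41 cell division genes, Ccnb1 included. For genes of that range of levels it was 2.03 times. These sets share the limits of level but were not matched for level within them, and the part of level in either order was not tested. It ran from 1.28 to 4.89 times over the 41 genes, and for 14 of 41 it was less than 2 times.

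In most of these genes nearly all tags lay in 1 start cluster. Only 1 cluster held tags in 21 of 41 genes, or 51.2%, against 44.1% of tested genes. The 41 genes had 79 cluster entries, 78 with tags, and none was also listed under another gene. More than 95% of the tags lay in 1 cluster for 36 of 41 genes, or 87.8%, against 69.9% of tested genes and 66.7% of those in the same range of levels. The strongest clusters had a median width of 135 bp, against 125 bp for tested genes and 137 bp for those in the same range of levels. The 5 exceptions were Ccne2, Mcm7, Kif20a, E2f1 and Foxm1.

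In Ccne2, 51.3% of tags lay in a cluster over the first exon (chromosome 4, plus strand, 11191719 to 11191787; 20.1, 18.8, 20.9 and 22.7 CPM). A further 48.1% lay in a cluster of 7 bp from 11192677 to 11192683, over the 5′ end of exon 2 of annotated transcripts (18.9, 16.9, 19.7 and 21.8 CPM). Both were present at like levels in each library. In Kif20a, 79.5% of tags lay in the strongest cluster and 19.7% in a cluster of 3 bp over the 5′ end of an annotated exon 2, which is also 5 bp from an annotated start of another transcript. Clusters over the 5′ end of a later exon made up 6 of 79 entries of these genes (7.59%), against 4.22% of the 49065 named entries. By level they held 1.65% of these genes' CPM, against 1.77% of the CPM of named entries. The alignments of their tags were not examined, so a start at the exon edge and a tag cut at a splice junction cannot be told apart.

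Mcm7 used several annotated starts. Its main cluster on chromosome 5, from 138171802 to 138171885 on the minus strand, took 78.7% of tags, and clusters downstream with 9.28% and 11.5% also held annotated starts. In E2f1 87.0% and in Foxm1 88.0% of tags lay in the main cluster.

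**Figure D5:**
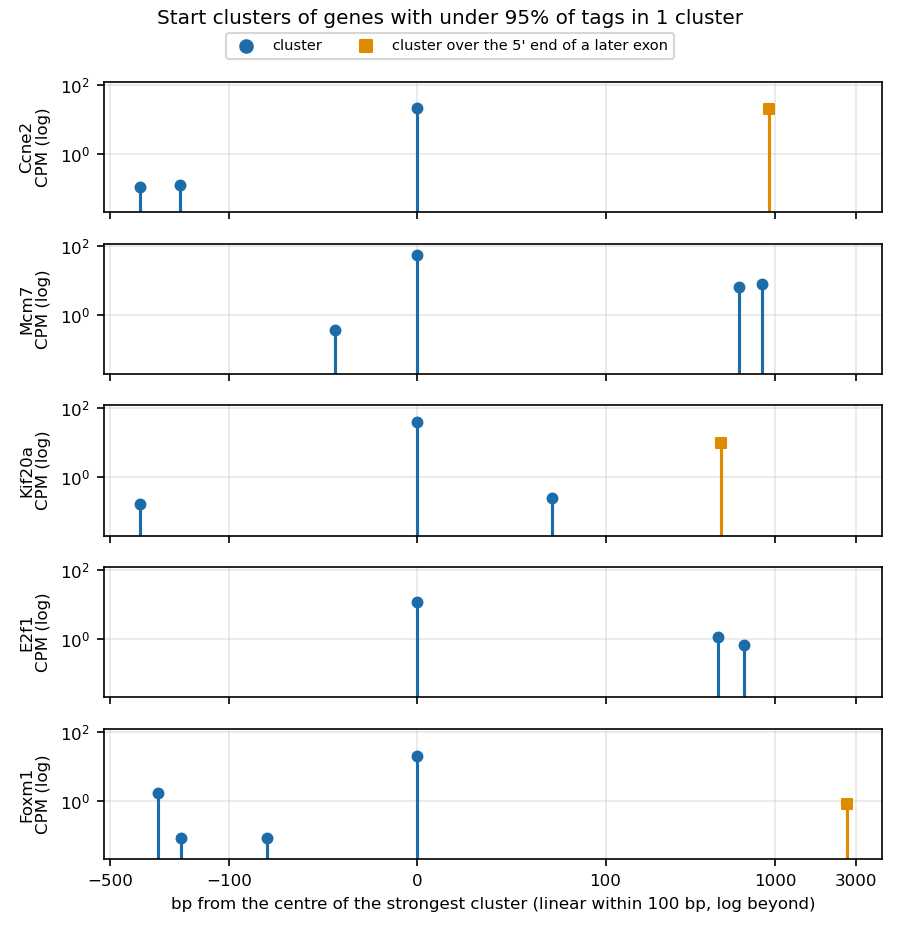
Mean level in CPM (log axis) of each start cluster of the 5 genes with under 95% of their tags in 1 cluster, by distance in bp from the centre of the gene's strongest cluster (linear within 100 bp, log beyond; positive is downstream). Squares mark clusters over the 5′ end of a later exon: that of Ccne2 (19.4 CPM) is nearly as high as the first-exon cluster (20.6 CPM), and that of Kif20a is at 9.47 CPM.

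Other genes of the pathway were followed through lists, in which 0 genes passed the limma test of spread and 0 had an unadjusted p under 0.05. Of all tested genes 0.231% and 6.29% did so, and at the first share a count of 0 in a short list says little. Upstream of E2F, 6 genes for D cyclins and their kinase partners were led by Cdk4 (150.5 ± 7.08 CPM, SD, n = 4) and Cdk6 (83.9 ± 13.0), and 0 of 6 passed. Of 7 Cdk inhibitor genes 6 were tested and 0 passed, with Cdkn1a, which encodes the arrest protein p21, at 187 ± 23.8 CPM, above all 41 cell division genes, and Cdkn1b at 68.3 ± 5.10 CPM. Among 12 genes of the Rb and E2F family, E2f4, encoding an E2F of repressor complexes, led with 93.6 ± 3.63 CPM, and 0 of 12 passed. The DREAM and MuvB list, whose complex binds the CHR, was led by Rbbp4 (91.4 ± 8.48), with Lin54, its DNA-binding subunit, at 36.1 ± 2.12, and 0 of 6 passed.

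Of the 37 other replication genes 0 passed, and Slbp, which binds histone mRNA, and the origin subunit gene Orc4 were highest at 82.2 ± 6.00 and 66.5 ± 1.84 CPM. Of the 40 other mitotic genes 0 passed, with the checkpoint gene Bub3 (81.7 ± 4.90) and Cks1b (69.1 ± 4.47) highest. Of 13 regulators of G2 and the anaphase-promoting complex 0 passed, led by the subunit gene Anapc5 at 235 ± 12.5 CPM and by Fzr1, its Cdh1 activator, at 78.1 ± 5.96 CPM. The median levels of other replication genes (23.5 CPM) and other mitotic genes (26.0 CPM) were below those of the 41 genes (40.2 CPM).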

How the data were processed

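Tags were deposited by the authors as CPM per start cluster, 69391 entries in 4 libraries. BWA, HISAT2 and the mm9 build are named in the submitters' processing notes, but 99.9% of the named entries lay within 1000 bp of their gene on GRCm38, so positions are given on GRCm38. The sources used here do not give how clusters were formed. Whole tags were recovered from the deposited CPM, 100% of values lying within 0.02 tags of a whole number. Entries with no gene name held 9.67% to 11.0% of the tags of distinct clusters and entered totals only. Of 17849 genes, 33 without tags were left out, as were 779 that drew 90% or more of their tags from clusters given to other genes. 17037 were kept and 14732 reached 1 CPM on average.

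The spread test used limma 3.58.1 (log2(CPM + 1), TMM over tested genes with factors 0.989, 0.933, 1.04 and 1.04, a robust prior trended on level with 3.47 degrees of freedom, a one-sided F test and Benjamini-Hochberg adjustment at 0.05). DESeq2 1.42.0 and edgeR 4.0.16, which called 33 genes on recovered tags, served as alternatives. The code was tested on simulated data. Sums, shares, folds and motif counts are descriptions with no test. Genes were named by fixed rules: the 4 highest and 2 lowest of each class, the 3 widest and 3 narrowest ranges, preset pairs, and the 2 highest genes of each list. Mki67 with Top2a was added after values were seen, and the Mcm genes were paired in the order of their means. The 41 genes, the lists and the tests were chosen with earlier results of these data known. The limit of 100 bp for matches near a start was set after the positions were seen.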

Additional observations from a re-analysis of the deposited data

How the results depend on the processing

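The count of all genes called for spread was unstable. It was 34 with limma, but 56 with a pseudocount of 0.5 CPM and 61 with no filter beyond 1 tag. With at least 10 tags in every library it was 0 (917 at an unadjusted p under 0.05). It was 104 with no scaling beyond CPM and 62 with each gene's strongest cluster only. DESeq2 marked 513 genes as dispersion outliers, which is a different measure from an adjusted p under 0.05. Leaving out 1 library gave 10 (without library 4) to 112 (without library 3). TMM over all genes with a tag, tried before the scaling reported and counted as an alternative after seeing the data, gave 56. The cause of these shifts was not tested. In each of these settings 0 of 41 cell division genes were called or, with DESeq2, marked.

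The log2 ratio of the sums was -0.30 without the 5 genes of several phases and -0.64 to -0.58 with 1 library left out. As a difference of mean or median log2 values it was 0.11 and 0.18, opposite in sign, and without Ccnb1 -0.055 and 0.11. Without Ccne2, Kif20a and Ccnb1, the ratio of the sums was -0.61. The settings without Ccnb1 were chosen after seeing the data. Library 3 had the highest value in each of these forms that included it. The range of the median S phase deviation (0.14) was 0.28 with no scaling and 0.065 to 0.15 with 1 library left out, lowest without library 3. That of the mitotic genes (0.16) was 0.26 with no scaling and 0.10 to 0.17. Genes highest in library 2 numbered 0 in CPM and 1 with TMM. No paired analysis was possible because the libraries form 1 group. Depth limits Ccnb1, with 16 to 33 tags per library, and less so the other genes.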
